A study of Mus musculus with 4 samples.

Results

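Type IB spiral ganglion neurons were compared with type IC spiral ganglion neurons within each of 4 mice. The cells were chosen by the subtype name in the authors' deposited cell annotation. It names 1625 type IB cells and 2104 type IC cells, together 3729 of the 6713 annotated cells. All of them came from wild-type male CBA/CaJ mice aged 9 weeks. The spiral ganglion was dissected with neighbouring cochlear tissue, dissociated with enzymes and captured in droplets (10x Genomics, v2 chemistry), with 1 library per mouse. Both subtypes therefore share animal, strain, sex, age, digestion and library, and no treatment or mutation separates them. Type IA neurons, the third subtype, were left out of the fit and appear below only as levels beside the others. The sources used here do not say how the authors assigned the names. These names describe the same cells whose RNA is compared, so a gene that helped to name the cells had to differ. Genes known as subtype markers are therefore described and are not independent support for the names.

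Spiral ganglion neurons carry the signals of cochlear hair cells to the brainstem. Type I neurons, the myelinated majority, each contact an inner hair cell through a single ribbon synapse, and they differ among themselves in spontaneous firing rate and sound threshold. Neurons of the IA class have been linked with low thresholds and high spontaneous rates, those of the IC class with high thresholds and low spontaneous rates, and those of the IB class with an intermediate place. Calretinin (Calb2), calbindin (Calb1) and the nicotinic receptor modulator Lypd1 are the usual molecular labels of IA, IB and IC.

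The count of a gene is its number of distinct RNA molecules, marked by unique molecular identifiers (UMIs). UMIs were summed over the cells of 1 subtype in 1 mouse, which gave 4 sums a side. The type IB sums held 318, 523, 421 and 363 cells in mice 1 to 4, and the type IC sums 412, 686, 539 and 467 cells. They ranged between 3830864 and 6471532 UMIs in type IB and between 5362955 and 8946824 UMIs in type IC. Levels are given in CPM, the usual per-million scaling of a gene's UMIs by all UMIs of its sum, and a level compares the same gene between subtypes, not one gene with another. The mouse is the replicate, and n is 4 for every mean and SD below. Of all cell barcodes, 26 occurred in more than 1 library, 9 of them among type IB and type IC cells.

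The type IB cells carried slightly less RNA. Their median UMI counts were 18258, 13225, 15447 and 11233 per cell in mice 1 to 4, against 19884, 14178.5, 16304 and 12843 in type IC cells of the same mice. Type IB was lower in 4 of 4 mice, by a log2 difference of -0.12 ± 0.05 (SD). The exact two-sided sign-flip permutation test gave p = 0.13, the smallest value that 4 pairs allow. With every cell thinned to 5199 UMIs, the median number of genes detected was 2416.5 ± 5.85 in type IB cells and 2423 ± 9.42 in type IC cells. That difference of -6.5 genes was smaller than its own spread between mice (SD 8.20, lower in 3 of 4 mice, exact permutation p = 0.25).

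**Figure D1:**
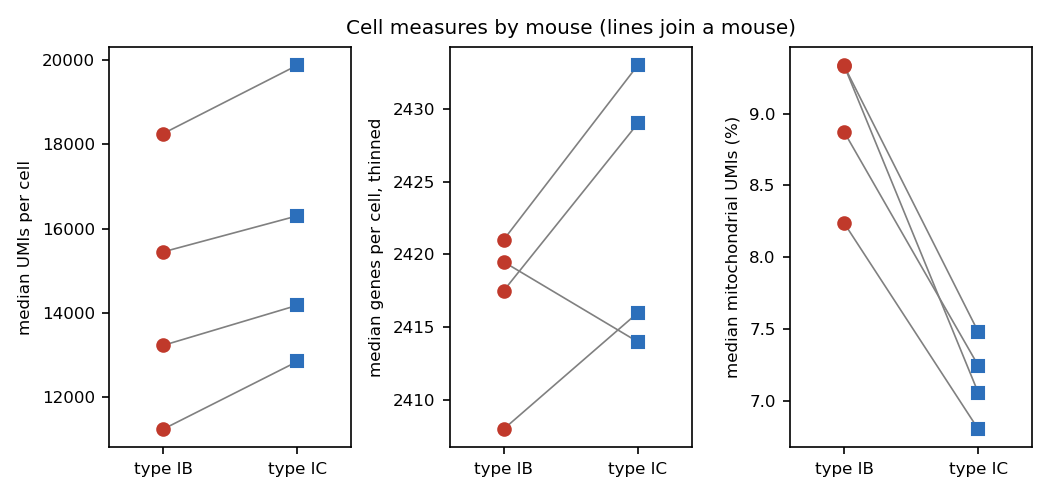
Median UMIs per cell, median genes detected per cell after thinning to 5199 UMIs, and median mitochondrial share of UMIs (vertical axes, which do not start at 0), with type IB left of type IC and 1 point per mouse. Lines join the subtypes of a mouse. UMIs were lower in type IB in 4 of 4 mice, the mitochondrial share was higher in 4 of 4, and genes detected went both ways.

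The subtype names were checked against their usual markers. Of the type IB markers, Calb1, Ttn and Lrrc52 were higher in type IB than in type IC, while Lypd1, which is also listed for type IC, was lower. All 4 type IA markers (Calb2, Pcdh20, Rxrg and B3gat1) were higher in type IB than in type IC, and each stood higher still in type IA. Of the type IC markers, Lypd1, Grm8 and Pou4f1 were lower in type IB. Runx1, the fourth, encodes a transcription factor and did not pass the test. Its levels were 80.6, 74.2, 76.6 and 94.0 CPM in type IB and 87.4, 87.3, 83.6 and 88.4 CPM in type IC, with a log2 difference of -0.10 ± 0.05 (SE, adjusted p = 0.123). Runx1 passed without mouse 4 (-0.15, adjusted p = 0.0313). Its level in type IA was 12.3 CPM, so in these cells it separated type IB and type IC from type IA. Of 5 general neuron markers, 2 were called higher and 2 lower in type IB. Their sum ranged between 7346 and 7869 CPM in type IB and between 6839 and 7331 CPM in type IC. Among them, Snap25 averaged 4656 ± 134 CPM in type IB and 4064 ± 127 CPM in type IC. The neuronal nuclear gene Rbfox3, also among them, averaged 66.3 ± 6.69 CPM in type IB and 139 ± 5.03 CPM in type IC.

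Summed marker levels of non-neuronal cell types overlapped between the subtypes. Summed over 8 satellite glia markers, the level ranged between 1474 and 1754 CPM in type IB and between 1436 and 1712 CPM in type IC. The sum over 8 Schwann cell markers ranged between 3179 and 3507 CPM in type IB and between 3101 and 3550 CPM in type IC. The macrophage, erythroid, hair cell, supporting cell, endothelial and fibroblast sums overlapped between the subtypes too, and none of these lists had a gene without UMIs in either subtype. Within the glial lists 2 genes were called higher and 1 lower, and 1 macrophage gene was called lower. The sum over 7 type II neuron markers did not overlap, with 135 to 156 CPM in type IB and 109 to 125 CPM in type IC. Most of it was Ngfr, which was called higher and averaged 109 CPM in type IB and 78.3 CPM in type IC. Prph and Th, which define type II neurons, stood at 1.17 and 0.284 CPM in type IB and at 1.25 and 0.339 CPM in type IC.

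Of 12314 genes that passed the filter on low counts, 2735 (22.2%) differed between type IB and type IC at an adjusted p under 0.05 by edgeR's quasi-likelihood test. Of these, 1416 (11.5% of the genes tested) were higher and 1319 (10.7%) lower in type IB. Most differences were small. The median log2 difference over all genes tested was -0.00, 95.6% of them lay within 1.5-fold, and the median size among called genes was 0.25. At least 2-fold differences were found for 195 genes (1.58%), of which 79 (0.642%) were higher and 116 (0.942%) lower in type IB. In 1749 genes (14.2%) all mice of one subtype lay above all mice of the other.

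The number of calls followed the level of the genes. Among genes under 5 CPM 9.01% were called, between 5 and 50 CPM 16.8%, and at 50 CPM or more 40.8%. The spread between mice was small after pairing (biological coefficient of variation 0.0178). A gene's own spread had 3 residual degrees of freedom, against a median of 613.7 prior degrees of freedom shared over genes. The very small p-values below therefore rest mostly on the shared spread. They measure neither how steady a gene was over 4 mice nor, by themselves, how large its difference was. Of the named genes, Fgf12, Pomc, Nrg3, Sdhd, Npas4 and Cyr61 were called with the same direction in only 3 of 4 mice. DESeq2 called 1019 of the genes, all of them also among the 2735 and in the same direction. Without the mouse as a block, edgeR called 1070.

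**Figure D2:**
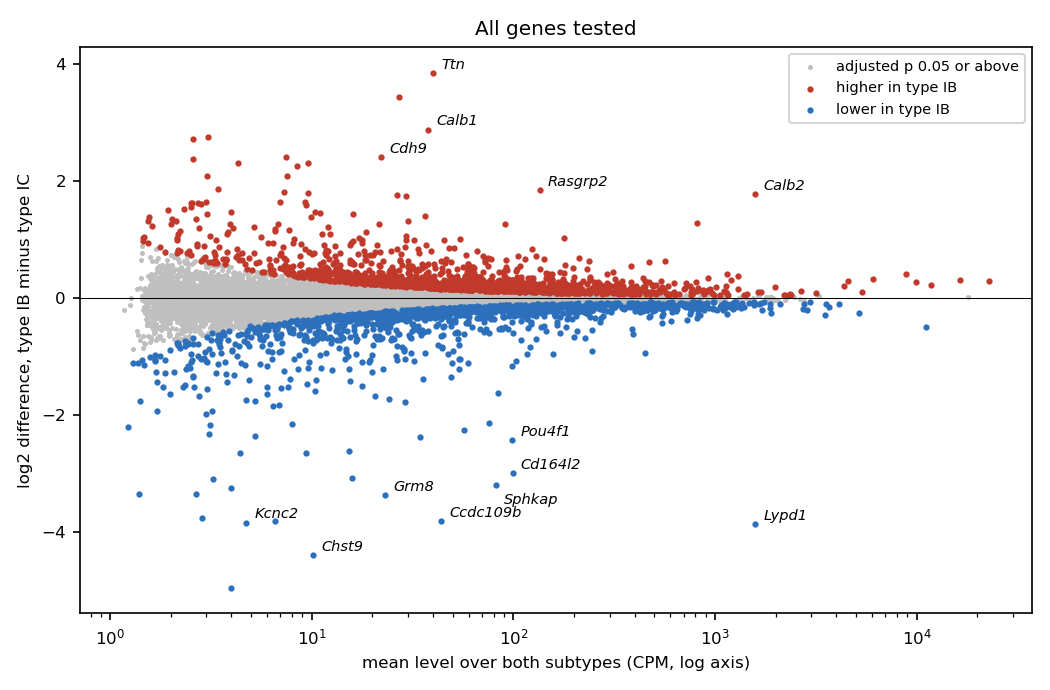
Log2 difference of type IB minus type IC (vertical axis) against the mean level over both subtypes in CPM (horizontal log axis), 1 point for each of the 12314 genes tested. Called genes are red where higher and blue where lower in type IB. Most lie close to 0. Ttn reaches 3.86 on the higher side, and Lypd1 (-3.86) and Chst9 (-4.40) are among the furthest on the lower side.

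The genes highest in type IB relative to type IC were led by Ttn and Calb1. Gene models with Gm, Rik or clone-type AC, BC and AI symbols, and genes under 5 CPM in the higher subtype, were passed over. The 15 highest log2 differences ran between 1.77 and 3.86, with no adjusted p above 4.41e-12. In 15 of these 15 genes the 4 type IB sums lay above the 4 type IC sums. The genes were picked by size and by direction in 4 of 4 mice, so this was nearly fixed by the choice. Over all genes tested, the subtypes did not overlap in 14.2%. Adhesion proteins, calcium binders, channel subunits and giant muscle proteins were among them.

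Ttn, which encodes titin, the giant spring protein of muscle sarcomeres, stood at 72.9, 61.3, 78.6 and 86.4 CPM in type IB of mice 1 to 4. In type IC of the same mice it stood at 3.36, 5.48, 5.59 and 5.97 CPM. Every type IB value was far above every type IC value, and the log2 difference was 3.86 ± 0.09 (SE, adjusted p = 3.45e-181). Type IA, at 3.85 CPM, was below both. The sarcomere gene Neb (nebulin) was higher in type IB as well, by 1.77 ± 0.09 on the log2 scale, but unlike Ttn it stood higher still in type IA. It averaged 40.9 CPM in type IB, 12 in type IC and 69.5 in type IA.

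Calbindin and calretinin are cytosolic calcium buffers, and both of their genes were higher in type IB. Calb1 had 59.3, 72.5, 68.1 and 66.6 CPM in type IB, against 7.13, 11.5, 7.58 and 10.1 CPM in type IC (2.89 ± 0.08, adjusted p = 2.17e-146). Calb2 averaged 2458 ± 287 CPM in type IB and 719 ± 116 CPM in type IC, a log2 difference of 1.78 ± 0.02. The subtypes overlapped in neither gene. The level in type IA was 5.52 CPM for Calb1, under both subtypes, and 9866 CPM for Calb2, above both.

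Adhesion genes formed the next part of the list. Cdh9, a classical type II cadherin, had 33.2, 30.8, 42.8 and 41.8 CPM in type IB, against 7.55, 5.59, 7.70 and 7.09 CPM in type IC (2.41 ± 0.10, adjusted p = 5.94e-88). Nrxn3, a presynaptic neurexin, was higher by 2.32 ± 0.16 and Cdh22, another cadherin, by 2.10 ± 0.17. Cdh9 and Nrxn3 stood at 58.0 and 26.8 CPM in type IA, above type IB.

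Among signalling genes, Rasgrp2, a calcium- and diacylglycerol-activated exchange factor for Rap, had 188, 177, 260 and 222 CPM in type IB. In type IC it had 56.4, 46.2, 79.2 and 51.5 CPM (1.86 ± 0.04, adjusted p = 4.34e-189). The lowest type IB mouse was above the highest type IC mouse. Mc4r, a melanocortin receptor, was low in both subtypes, at 5.37 CPM in type IB and 1.48 CPM in type IC (1.86 ± 0.25). Colq, which anchors acetylcholinesterase in the synaptic matrix, averaged 11.4 CPM in type IB and 3.20 CPM in type IC, and Ephx4, of the epoxide hydrolase family, 14.1 CPM in type IB and 2.92 CPM in type IC. RP23-216D14.3 completed the list with a difference of 2.32 ± 0.23.

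The genes lowest in type IB reached larger differences than the highest ones. The 15 lowest ran between -4.40 and -2.61, with no adjusted p above 6.51e-21. Again 15 of 15 did not overlap between the subtypes, which the choice nearly fixed here too (14.2% over all genes tested). Many were close to absent from type IB. By mean level over mice, type IA lay below both subtypes in 13 of these 15 genes and between them in 2. The ranges of type IA and type IB met in some of these genes. In Samd11 they were 0.295 to 1.01 CPM in type IA and 0.155 to 1.31 CPM in type IB. They were apart in others, such as Lypd1 (86.2 to 138 CPM in type IA, 152 to 238 CPM in type IB).

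Lypd1 encodes a membrane-anchored Ly6 protein that binds nicotinic acetylcholine receptors and dampens them. It had 207, 238, 204 and 152 CPM in type IB, against 3190, 2941, 3028 and 2654 CPM in type IC. The lowest type IC mouse was far above the highest type IB mouse. The log2 difference was -3.86 ± 0.03, and type IA, at 110 CPM, was below both.

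Chst9, a sulfotransferase that acts on N-acetylgalactosamine of glycans, had the largest difference of the named genes, -4.40 ± 0.20 (adjusted p = 1.34e-75). Its level was 0.755, 0.773, 1.16 and 0.783 CPM in type IB, against 20.1, 14.4, 21.1 and 22.0 CPM in type IC. Ccdc109b, a subunit that inhibits the mitochondrial calcium uniporter, had 5.66, 6.18, 5.80 and 5.48 CPM in type IB and 76.2, 93.1, 77.9 and 80.7 CPM in type IC (-3.81 ± 0.09). Chst9 had 19 UMIs in all type IB cells together and Ccdc109b 126, so how alike the type IB mice were in Chst9 cannot be judged.

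Grm8, a presynaptic metabotropic glutamate receptor, had 6.61, 3.55, 2.65 and 3.39 CPM in type IB, against 47.0, 40.8, 40.5 and 39.9 CPM in type IC (-3.37 ± 0.12, adjusted p = 2.36e-114). Sphkap, an anchoring protein for protein kinase A, had 16.6, 12.8, 14.4 and 20.9 CPM in type IB and 134, 134, 137 and 185 CPM in type IC (-3.19 ± 0.06, adjusted p = 5.68e-218). Mouse 4 had the highest Sphkap level in both subtypes, and the subtypes did not overlap in either gene. Cd164l2, a sialomucin-like membrane protein gene, averaged 22.5 CPM in type IB and 176 CPM in type IC (-2.98 ± 0.06).

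The remaining low genes were rare in type IB. Kcnc2, a fast Kv3 potassium channel pore, averaged 0.619 CPM in type IB and 8.82 CPM in type IC (-3.83 ± 0.27). Glis1, a zinc finger transcription factor, differed by -3.81 ± 0.23 and Diras2, a small GTPase, by -3.76 ± 0.35. Diras2 had 8 UMIs in all type IB cells together. Samd11, Ptchd4, Fanca (a Fanconi anaemia DNA repair protein), Tomt (needed for the mechanotransduction channel of hair cells), Ahnak2 and the homeodomain gene Hopx lay between -3.25 and -2.61.

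**Figure D3:**
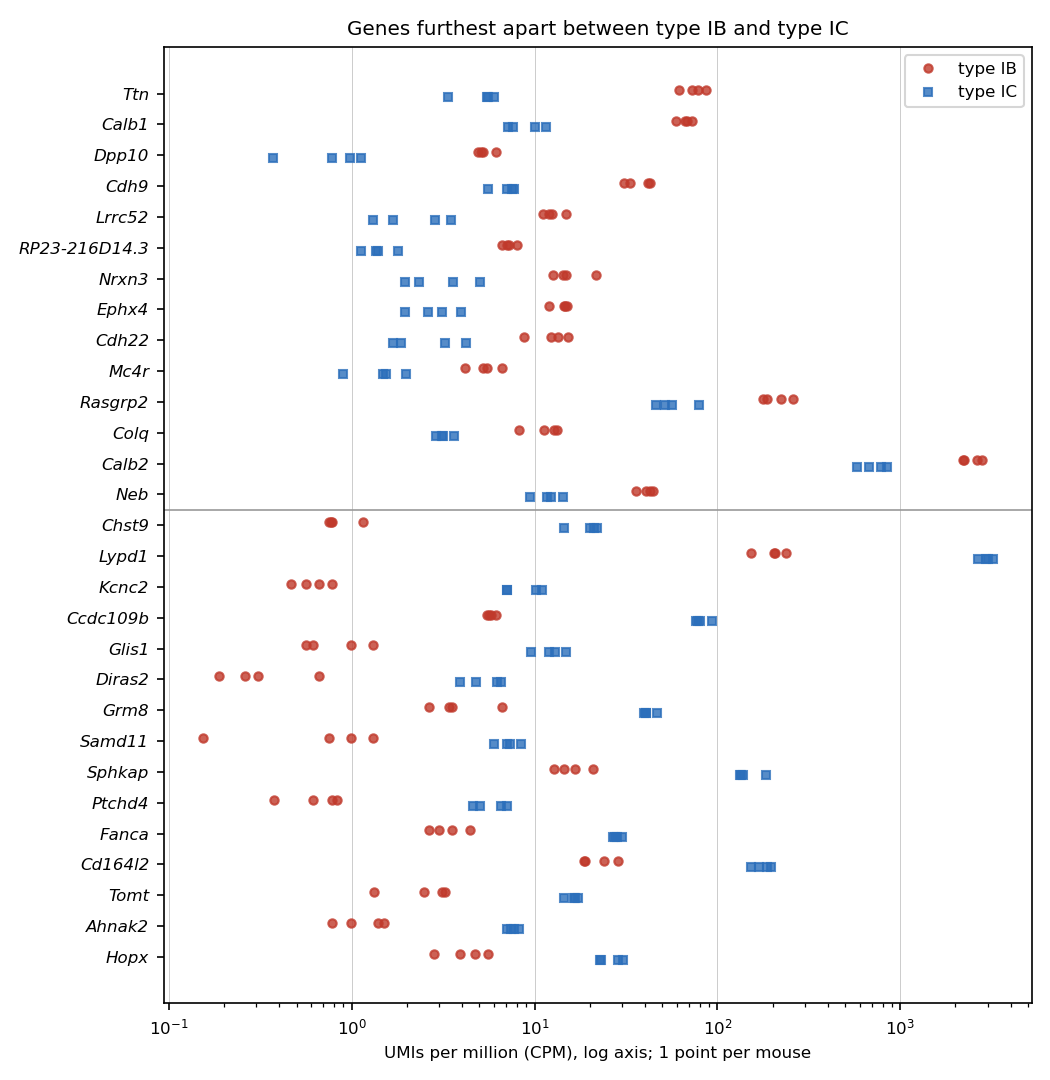
Levels in CPM (horizontal log axis) of 14 of the 15 genes highest and of the 15 lowest in type IB relative to type IC, ordered by log2 difference, with 1 point per mouse for type IB (red circles, upper row of each gene) and type IC (blue squares, lower row). The subtypes do not overlap in any gene drawn, from Ttn (61.3 to 86.4 against 3.36 to 5.97 CPM) down to Hopx (2.82 to 5.56 against 22.7 to 30.6 CPM).

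Exons of 13 of the 28 top genes found in GENCODE M21 overlap an annotated gene on the other strand (Lypd1 overlaps Gpr39, and Ttn overlaps Gm13938). Another 3 (Colq, Glis1 and Grm8) share exon positions with a gene on their own strand. The sources used here do not say whether counting used the strand, so reads of such neighbours cannot be told apart in these genes.

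Promoters are printed for the gene with the largest difference in each direction that RefSeq's promoter table holds (Ttn and Lypd1). They are followed by the gene with the largest difference in each direction whose window holds ATTAAT, the core letters bound by POU4F1 (Cdh9, higher in type IB, and Samd11, lower). Each window spans 250 bases before and 50 bases after a RefSeq transcription start, in build GRCm38.p6, written 5′ to 3′ on the gene's strand. The reference is of another strain than CBA/CaJ. Capitals mark ATTAAT, which is its own reverse complement, and CAGATG or its reverse complement CATCTG, an E-box of the kind NEUROD1 binds. Ttn lies at chr2:76982498-76982797 (minus strand), Lypd1 at chr1:125912879-125913178 (minus), Cdh9 at chr15:16728665-16728964 (plus) and Samd11 at chr4:156255293-156255592 (minus).
Ttn: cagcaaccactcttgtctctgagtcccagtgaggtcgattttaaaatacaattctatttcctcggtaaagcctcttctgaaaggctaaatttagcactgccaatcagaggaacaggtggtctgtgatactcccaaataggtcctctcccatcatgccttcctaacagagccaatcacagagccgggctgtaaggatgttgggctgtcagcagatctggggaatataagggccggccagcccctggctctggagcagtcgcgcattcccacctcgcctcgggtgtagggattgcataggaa
Lypd1: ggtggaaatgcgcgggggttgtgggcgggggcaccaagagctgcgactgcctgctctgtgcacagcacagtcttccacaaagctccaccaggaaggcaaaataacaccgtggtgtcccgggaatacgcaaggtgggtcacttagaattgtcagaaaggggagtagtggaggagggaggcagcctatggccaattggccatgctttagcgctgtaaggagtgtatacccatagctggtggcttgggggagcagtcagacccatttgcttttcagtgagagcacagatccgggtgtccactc
Cdh9: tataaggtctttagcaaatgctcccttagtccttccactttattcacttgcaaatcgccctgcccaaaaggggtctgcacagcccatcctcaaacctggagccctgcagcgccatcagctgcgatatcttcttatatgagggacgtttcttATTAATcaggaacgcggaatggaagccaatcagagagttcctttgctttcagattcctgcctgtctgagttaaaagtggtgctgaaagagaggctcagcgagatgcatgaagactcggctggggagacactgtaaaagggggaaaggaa
Samd11: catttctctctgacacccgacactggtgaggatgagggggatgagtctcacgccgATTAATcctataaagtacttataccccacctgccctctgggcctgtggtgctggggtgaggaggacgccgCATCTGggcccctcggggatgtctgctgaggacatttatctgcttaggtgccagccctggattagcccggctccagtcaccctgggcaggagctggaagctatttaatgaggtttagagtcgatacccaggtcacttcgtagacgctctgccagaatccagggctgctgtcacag

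Ttn and Lypd1 hold neither motif in these windows, Cdh9 holds ATTAAT once, and Samd11 holds both motifs once each. Of the 30 top genes 21 had a promoter in the table, and ATTAAT was present in 1 of 8 of the highest and 3 of 13 of the lowest (Samd11, Tomt and Hopx). Among all genes called at 2-fold or more, ATTAAT was present in 6 of 56 higher genes (10.7%) and 8 of 88 lower genes (9.09%), against 2.68% of 9324 tested genes with a promoter. It was present in 5.51% of all 27025 genes with a promoter in the table. CAGATG or CATCTG was present in 9 of 56 higher genes (16.1%) and 17 of 88 lower genes (19.3%). It was present in 13.2% of tested genes and in 19.2% of all 27025 genes with a promoter in the table. A match is a string of letters and not a binding site. The shares of both motifs were close between higher and lower genes.

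Grouped by function, 20 of 21 gene lists held called genes at a larger share than the 22.2% of all genes tested, and the immediate early list did not. Among all genes, 16.8% were called between 5 and 50 CPM and 40.8% at 50 CPM or more. Shares were above 16.8% also in lists with a median between 5 and 50 CPM. Examples are potassium channels (66.7%, median 24.8 CPM) and axon guidance (50%, median 13.6 CPM). The part of level in these shares was not tested. The lists were chosen with earlier results in view, so a share above 22.2% is not read as a trait of a list's function. Their counts are given as descriptions beside the 11.5% higher and 10.7% lower among all genes.

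**Figure D4:**
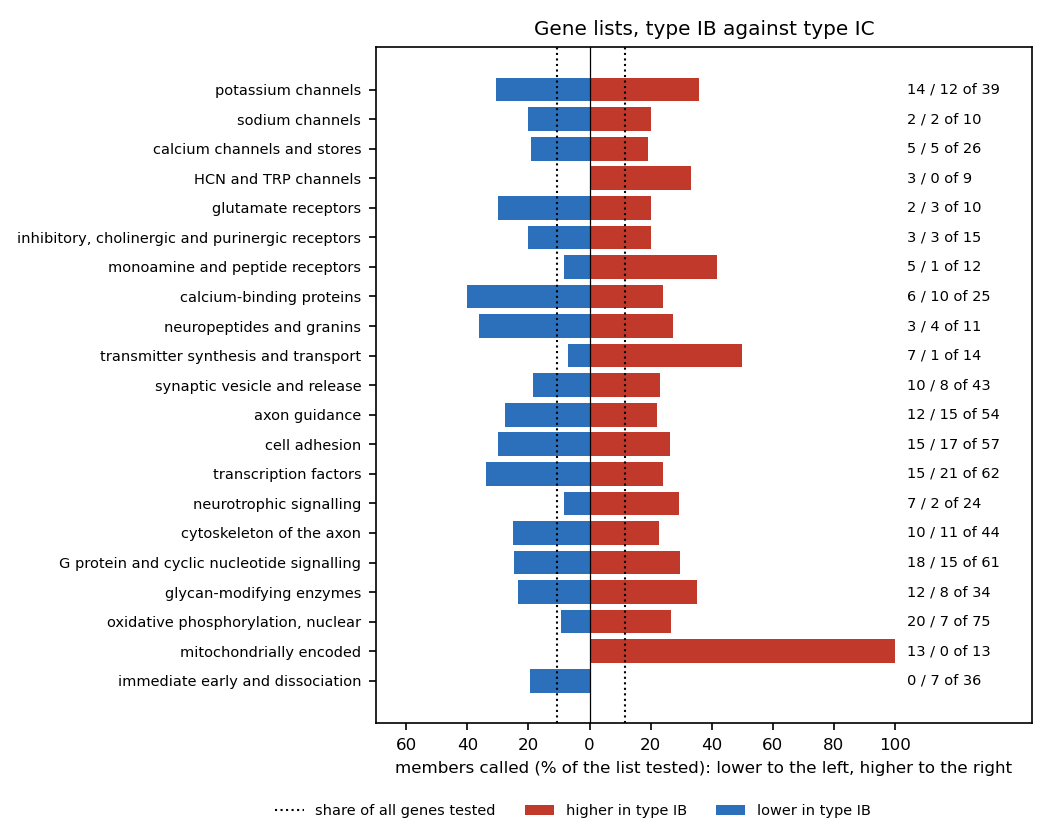
Share of each list's tested members (horizontal axis, %) called higher (red, to the right) and lower (blue, to the left) in type IB, with the numbers at the right as higher / lower of tested. Dotted lines mark 11.5% higher and 10.7% lower over all genes tested. Most lists moved in both directions, and the 13 mitochondrially encoded genes moved only to the higher side.

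Receptors differed gene by gene. Of 10 glutamate receptor genes tested, 2 were higher and 3 lower (median log2 difference 0.02). Grm8 led, and the kainate receptor subunit Grik4 was lower (-0.52 ± 0.07). Grm7, another presynaptic metabotropic receptor, was higher (0.27 ± 0.07), as was the AMPA receptor subunit Gria3 (0.23 ± 0.04). Of 15 inhibitory, cholinergic and purinergic receptor genes, 3 were higher and 3 lower (median -0.01). Within the Ly6 family the directions were opposite. Lypd1 fell, while Lypd6 had 17.7, 17.3, 23.2 and 23.8 CPM in type IB and 13.1, 10.4, 7.70 and 11.7 CPM in type IC (0.94 ± 0.11), without overlap. The low-level family member Ly6h was higher too (1.36 ± 0.27).

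Of 12 monoamine and peptide receptor genes tested, 5 were higher and 1 lower (median 0.19). The serotonin receptor gene Htr2c had 13, 14.7, 18.6 and 14.9 CPM in type IB, against 6.15, 7.38, 8.95 and 5.97 CPM in type IC (1.09 ± 0.13). The dopamine receptor gene Drd1 had 8.87, 7.57, 8.45 and 12.5 CPM in type IB, against 21.3, 19.2, 20.6 and 23.7 CPM in type IC (-1.20 ± 0.11). Neither gene overlapped between the subtypes. Without mouse 1 or without mouse 2, 3 of the genes were called higher, and without mouse 3, 2 were called lower. The adenosine receptor gene Adora1 differed by 1.20 ± 0.22, but by 0.66 with the names rebuilt from separate UMIs described below (adjusted p = 0.109). Htr7, at 0.50 ± 0.16 (adjusted p = 0.00957), did not pass without mouse 1 (adjusted p = 0.0659) or without mouse 2 (adjusted p = 0.183).

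Potassium channel genes had the largest called share of the channel lists, 66.7% of 39 tested, with 14 higher and 12 lower and a median of 0.02. The genes past 2-fold went both ways. Dpp10, an auxiliary subunit of A-type Kv4 channels, had 4.91, 5.10, 6.13 and 5.22 CPM in type IB and 0.979, 0.782, 0.373 and 1.12 CPM in type IC (2.76 ± 0.28). Lrrc52, an auxiliary subunit of large-conductance calcium-activated channels, had 14.9, 12.5, 11.1 and 12 CPM in type IB and 3.50, 1.68, 2.86 and 1.31 CPM in type IC (2.41 ± 0.17). Both stood clear of type IC in every mouse. Kcnc2 fell, as did the 2-pore leak channel gene Kcnk3, at 4.91, 4.33, 4.64 and 3.13 CPM in type IB and 12.4, 11.3, 11.1 and 10.8 CPM in type IC (-1.38 ± 0.16). Of members outside the naming rule, which were picked after their values were seen, Kcnk10 (1.21) and Kcns3 (1.06) were higher and Kcnj9 (-1.04) lower by at least 2-fold.

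Sodium channel genes changed little, with 2 of 10 higher and 2 lower (median -0.08), and 1 higher without mouse 2, 3 or 4. The auxiliary subunit gene Scn2b and the leak channel gene Nalcn were both at -0.56, with SEs of 0.08 and 0.10. Scn4b differed by 0.16 ± 0.03. Fgf12, an intracellular modulator of these channels, was called at 0.11 ± 0.04, but was higher in only 3 of 4 mice. It did not pass without mouse 2 (adjusted p = 0.248), mouse 3 (0.0676) or mouse 4 (0.161). Without the mouse as a block neither passed, with Scn4b at an adjusted p of 0.135 and Fgf12 at 0.286.

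All 3 called HCN and TRP channel genes were higher, out of 9 tested (median 0.18). They included the pacemaker channel genes Hcn2 (0.42 ± 0.04) and Hcn3 (0.65 ± 0.20). Hcn2 had 190, 140, 187 and 158 CPM in type IB and 137, 112, 142 and 114 CPM in type IC. Its ranges met across mice, but type IB was the higher in each mouse. Hcn3 did not pass without mouse 3 (adjusted p = 0.0692) or without the block (0.0583).

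Calcium channel and store genes were higher in 5 and lower in 5 of 26 cases (median -0.02), and without mouse 1 the higher ones numbered 3. Ryr2, a ryanodine receptor that releases calcium from the endoplasmic reticulum, had 27.6, 33.8, 31.2 and 33.4 CPM in type IB, against 59.0, 57.2, 52.7 and 58.5 CPM in type IC (-0.84 ± 0.07). Cacna1b, the N-type channel pore, had 3.78, 3.40, 2.15 and 2.09 CPM in type IB and 1.26, 0.782, 0.994 and 1.12 CPM in type IC (1.51 ± 0.32). Cacna1e, the R-type pore, differed by -1.03 ± 0.26 and Cacng5 by -1.08 ± 0.28. Cacna1e did not pass without mouse 2 (adjusted p = 0.0534), nor Cacng5 without mouse 1 (0.0907) or without the block (0.0547).

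Calcium-binding protein genes were higher in 6 and lower in 10 of 25 cases (median -0.05). Calb1 and Calb2 were the only members past 2-fold. Cpne4, a copine that binds membranes when calcium rises, had 71.0, 80.7, 72.1 and 67.1 CPM in type IB and 47.3, 43.8, 47.1 and 37.7 CPM in type IC (0.74 ± 0.06). Ncald, a neuronal calcium sensor, had 13, 8.81, 12.3 and 6.26 CPM in type IB and 19.7, 21.6, 22.1 and 17.9 CPM in type IC (-0.98 ± 0.11). The subtypes overlapped in neither.

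At the synaptic output, 10 of 43 vesicle and release genes were higher and 8 lower (median -0.00), and the 3 past 2-fold were all lower. Rph3a (rabphilin), a Rab3 effector on synaptic vesicles, had 30.8, 26.0, 28.5 and 25.6 CPM in type IB, against 129, 100, 141 and 127 CPM in type IC (-2.14 ± 0.06, adjusted p = 2.80e-157). The complexin gene Cplx2 (-1.46 ± 0.15) and the active zone gene Rims3 (-1.10 ± 0.06) were lower too. Syt7, a slow calcium sensor of release, had 281, 241, 269 and 258 CPM in type IB and 166, 160, 171 and 153 CPM in type IC (0.69 ± 0.03). None of these genes overlapped between the subtypes.

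Of 14 genes of transmitter synthesis and transport, 7 were higher and 1 lower (median 0.15). The higher ones included Slc6a17, a vesicular amino acid transporter (0.50 ± 0.03), and Slc38a1, a glutamine transporter (0.41 ± 0.03). Slc6a17 had 267, 241, 289 and 285 CPM in type IB and 201, 157, 216 and 200 CPM in type IC, and all 4 type IB values lay above. Slc17a6, the vesicular glutamate transporter VGLUT2, was the 1 lower member (-0.35 ± 0.04).

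Neuropeptide and granin genes were higher in 3 and lower in 4 of 11 cases (median -0.08), and with any 1 mouse left out at most 1 was higher. The prohormone convertase gene Pcsk2 had 40.2, 43.1, 40.6 and 38.9 CPM in type IB, against 129, 114, 137 and 125 CPM in type IC (-1.61 ± 0.05, adjusted p = 3.78e-125), and Cpe, a carboxypeptidase of the same pathway, was lower by a log2 difference of -0.39 ± 0.02. Pam, an amidating enzyme, was at 0.23 ± 0.09 and Pomc at 0.29 ± 0.11, and neither was steady. Pam did not pass without mouse 1 (adjusted p = 0.204), mouse 3 (0.0950) or mouse 4 (0.108), and Pomc, higher in 3 of 4 mice, did not pass without mouse 2 (0.169), mouse 3 (0.312) or mouse 4 (0.0993). Without the block their adjusted p was 0.613 and 0.260.

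Cell adhesion genes were higher in 15 and lower in 17 of 57 cases (median -0.01). Besides Cdh9, Nrxn3 and Cdh22, the protocadherin gene Pcdh20 was higher, with 18.5, 14.2, 13.6 and 18.8 CPM in type IB and 6.01, 7.49, 3.98 and 5.41 CPM in type IC (1.47 ± 0.13). Past 2-fold, 5 members were higher and 3 lower. The 3 lower ones, picked after their values were seen, were Negr1 (-1.21), Tenm2 (-1.13) and Cdh4 (-1.10).

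Axon guidance genes were higher in 12 and lower in 15 of 54 cases (median 0.01). Nrp1, a semaphorin co-receptor, had 10.6, 14.5, 8.79 and 13.3 CPM in type IB and 24.6, 34.4, 25.7 and 27.8 CPM in type IC (-1.26 ± 0.10). Sema3e, a secreted semaphorin, had 226, 201, 259 and 275 CPM in type IB and 105, 102, 128 and 135 CPM in type IC (1.04 ± 0.04, adjusted p = 1.50e-114). The 2 genes lay on opposite sides without overlap. The repellent Slit2 (-1.25 ± 0.17) and the netrin receptor gene Dcc (-1.02 ± 0.26) were lower. Dcc did not pass with DESeq2 (adjusted p = 0.132) or with rebuilt names, where it was at -0.49 (adjusted p = 0.371).

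Transcription factor genes were higher in 15 and lower in 21 of 62 cases (median -0.04). Pou4f1, a POU homeodomain factor of sensory neurons, had 31.5, 29.8, 32.8 and 28.7 CPM in type IB, against 166, 164, 161 and 178 CPM in type IC (-2.42 ± 0.05, adjusted p = 1.89e-198). Neurod1, a proneural factor, was low in both subtypes, at 1.51, 1.08, 1.16 and 1.04 CPM in type IB and 4.06, 4.92, 5.84 and 4.29 CPM in type IC (-1.98 ± 0.27). Casz1, a zinc finger factor, went the other way, with 41.2, 42.0, 46.4 and 53.0 CPM in type IB and 12.4, 12.7, 15.7 and 12.7 CPM in type IC (1.75 ± 0.08). In all 3 genes the values of the subtypes were far apart. Rxrg, the gamma retinoid X receptor, was higher by 1.60 ± 0.14.

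Neurotrophic signalling genes were higher in 7 and lower in 2 of 24 cases (median 0.11), with no member past 2-fold and 1 lower without mouse 3. Sort1 (sortilin) was higher by 0.65 ± 0.08, Ngfr (the p75 neurotrophin receptor) by 0.48 ± 0.05 and Nrg1, a myelination signal to Schwann cells, by 0.32 ± 0.04. Nrg3, at 0.30 ± 0.12 and higher in 3 of 4 mice, did not pass without mouse 1 (adjusted p = 0.106), mouse 2 (0.213) or mouse 3 (0.192), nor without the block (0.222).

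Genes of G protein and cyclic nucleotide signalling were higher in 18 and lower in 15 of 61 cases (median 0.02). After Sphkap the largest differences were in regulators of G protein signalling. Rgs12 had 12.3, 13.4, 13.1 and 13.8 CPM in type IB and 43.9, 49.6, 41.8 and 44.8 CPM in type IC (-1.77 ± 0.09), and Rgs20, with about 1 CPM in type IB, differed by -1.64 ± 0.32. The adenylyl cyclase gene Adcy5 was higher, with 13.8, 12.8, 17.4 and 13.3 CPM in type IB and 5.74, 5.03, 5.84 and 5.59 CPM in type IC (1.39 ± 0.14).

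Glycan-modifying enzyme genes were higher in 12 and lower in 8 of 34 cases (median 0.06). Mgat4c, an N-glycan branching enzyme gene, had 11.3, 10.4, 12.4 and 10.7 CPM in type IB and 37.1, 39.1, 37.5 and 34.3 CPM in type IC (-1.72 ± 0.09). Mgat5b, another branching enzyme gene, had 10.9, 10.5, 8.62 and 12.5 CPM in type IB and 2.52, 3.13, 4.72 and 2.80 CPM in type IC (1.65 ± 0.17). The 2 related genes thus lay on opposite sides. Galntl6, of the family that starts mucin-type glycans, differed by -3.34 ± 0.48 and rests on 5 UMIs in type IB. B3gat1, which makes the HNK-1 carbohydrate, was higher by 1.27 ± 0.09.

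Among 44 genes of the axonal cytoskeleton, 10 were higher and 11 lower (median 0.02), with 7 lower when mouse 1 was left out. Apart from Ttn the differences were small, with the filament gene Ina at 0.27 ± 0.03, Basp1 at 0.25 ± 0.04 and the tubulin gene Tuba1b at -0.26 ± 0.02. Basp1 and Tuba1b did not pass without the block (adjusted p = 0.0615 and 0.0920).

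All 13 mitochondrially encoded genes were higher in type IB, with a median log2 difference of 0.29. They encode subunits of the respiratory chain and of the ATP synthase. mt-Nd1 led with 0.41 ± 0.02, followed by mt-Nd2 (0.39 ± 0.02), mt-Co2 (0.32 ± 0.02) and mt-Atp6 (0.32 ± 0.02). Fewer of the 13 passed without the block (9) and with all 5 populations in 1 model (6), and 11 passed without mouse 1 or without mouse 3. Their median difference was between 0.26 and 0.30 in these settings. With rebuilt names it was 0.45, against 0.29 with the authors' names on the same UMIs.

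The same was seen in single cells. The median mitochondrial share of a cell's UMIs was 9.34, 8.24, 8.87 and 9.34% in type IB, against 7.06, 6.80, 7.25 and 7.48% in type IC. The difference of 1.80 ± 0.363 percentage points (SD) was positive in 4 of 4 mice (exact sign-flip permutation p = 0.13, the smallest possible). Every type IB mouse was above every type IC mouse. Type IB cells also had fewer UMIs than type IC cells and lower levels of 7 immediate early and dissociation genes, and the part of these in the mitochondrial share was not tested.

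The nuclear genes of oxidative phosphorylation did not share one direction. In the fit 20 of 75 were higher and 7 lower, with a median of 0.02. Without mouse 1, 12 were higher, and without mouse 4, 4 were lower. With library sizes alone in place of TMM scaling the numbers were 16 and 13, with upper-quartile scaling 16 and 11, and without the block a single member was called, as lower. With the names rebuilt from separate UMIs (described below) they were 3 and 19, so no direction is read from this list. Ndufa8 was lower (-0.21 ± 0.03), and Uqcrb (0.16 ± 0.02), Sdhd (0.14 ± 0.04) and Ndufa5 (0.13 ± 0.02) were higher. Without the block the last 3 did not pass (adjusted p = 0.0522, 0.168 and 0.131), nor did Sdhd without mouse 1 (0.0885).

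Immediate early and dissociation genes were called in 7 of 36 cases (19.4%, median -0.02), and the 7 were lower in type IB. Npas4, an activity-induced transcription factor gene, was at 1.32, 0.464, 0.663 and 2.87 CPM in type IB and 1.12, 3.58, 2.86 and 3.73 CPM in type IC (-1.25 ± 0.32), and was lower in 3 of 4 mice. The chaperone gene Hspa8 (-0.16 ± 0.02), Cyr61 (-0.16 ± 0.05) and the injury-induced factor gene Atf3 (-0.14 ± 0.05) had small differences. DESeq2 called 2 of the 36, and 3 were called without mouse 4. Without the block the adjusted p was 0.128 for Npas4, 0.0675 for Hspa8, 0.471 for Cyr61 and 0.472 for Atf3. Npas4 did not pass without mouse 2 (adjusted p = 0.159), Cyr61 not without mouse 3 (0.457) or mouse 4 (0.0624), and Atf3 not without mouse 2 (0.0708) or mouse 4 (0.0527).

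A level in a sum can come from many cells with few molecules or from few cells with many, so the shares of cells with a UMI were compared at 1 depth. Each cell was thinned to 5199 UMIs, which left out 163 type IB, 210 type IC and 335 type IA cells as too shallow. Ttn was detected in 29.3 ± 3.86% of type IB cells, 2.06% of type IC cells and 1.39% of type IA cells. Calb1 was detected in 25.7 ± 0.924% of type IB cells, 4.59% of type IC cells and 2.66% of type IA cells. Without thinning the type IB shares were 49.9% for Ttn and 44.1% for Calb1, and the type IC shares 5.20% and 9.85%. Median depth before thinning was 13334 UMIs in type IB, 14403 in type IC and 12400.5 in type IA.

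Pou4f1 was detected in 13% of type IB cells, 55.5% of type IC cells and 3.99% of type IA cells. Sphkap was detected in 7.99% of type IB cells and 48.3% of type IC cells, and Cd164l2 in 11.4% of type IB cells and 55.4% of type IC cells. For Sphkap the type IA share (12.7%) was above that of type IB, and for Cd164l2 it was 8.69%. Rasgrp2 was detected in 59.8% of type IB cells and 23.7% of type IC cells, and Cdh9 in 17.9% of type IB cells, 3.33% of type IC cells and 26.2% of type IA cells.

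Lypd1 was detected well beyond type IC. At least 1 UMI was found in 99.1% of type IC cells, but also in 43.3% of type IB, 38.3% of type IA and 46.1% of type II cells. The median thinned type IB cell had 0 Lypd1 UMIs in each of the 4 mice and its percentile 90 was 2, against medians of 16, 15, 15 and 13 UMIs in type IC. With a minimum of 3 UMIs, 8.39, 8.76, 7.44 and 5.56% of type IB cells were positive, against 98.5, 97.1, 98.8 and 98.2% of type IC cells. Those 112 type IB cells, of 1462, held 51.3% of the Lypd1 UMIs found in type IB. The level of 200 CPM in the type IB sums thus came in large part from a small share of the cells.

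**Figure D5:**
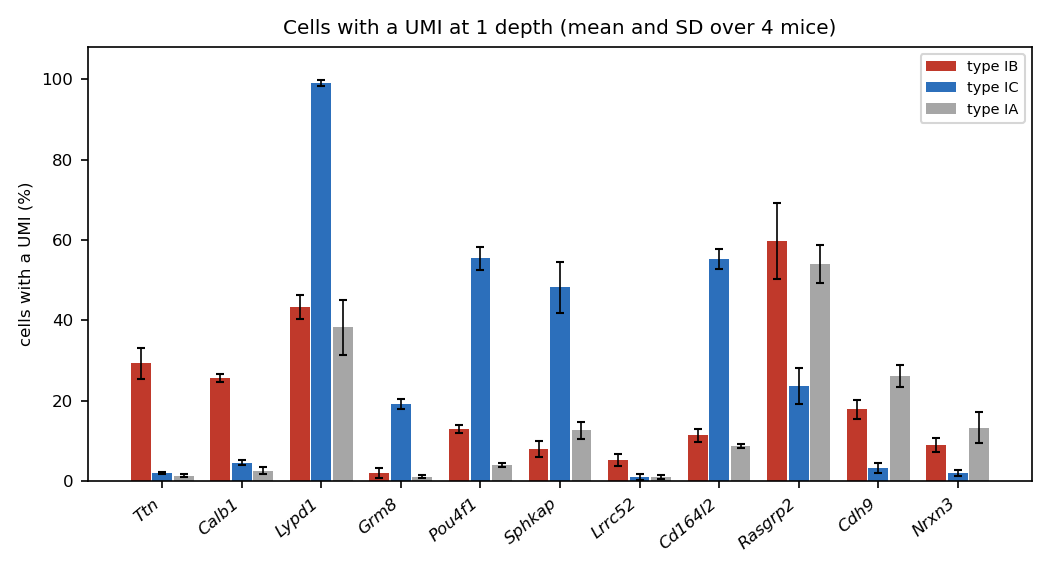
Share of cells with at least 1 UMI of each gene (vertical axis, %) after thinning to 5199 UMIs, as mean over 4 mice with SD bars, for type IB (red), type IC (blue) and type IA (grey). Ttn (29.3%) and Calb1 (25.7%) were detected in a minority of type IB cells, while Lypd1 was detected in 99.1% of type IC cells.

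Taking Calb1 (at least 1 UMI) and Lypd1 (at least 3 UMIs) together, 24.7 ± 1.05% of type IB cells had Calb1 alone, 6.58% Lypd1 alone, 0.951% both and 67.7% neither. In type IC 0.290% had Calb1 alone, 93.8% Lypd1 alone, 4.30% both and 1.57% neither. Most type IB cells at this depth thus met neither minimum. The minimum was stricter for Lypd1, of which 43.3% of type IB cells had at least 1 UMI. A cell without a Calb1 UMI cannot be called negative at 5199 UMIs.

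Type IA allowed a further description of the genes that separated type IB from type IC. Of 52 genes at least 2-fold higher in type IB and at 5 CPM or more there, type IA lay above both subtypes in 21, between them in 23 and below both in 8. Of 79 genes at least 2-fold lower in type IB, type IA lay below both in 66, between them in 12 and above both in 1. Over all 10463 tested genes at that level, type IA was above both in 35.3%, between in 22.0% and below both in 42.8%. These positions compare means over mice, and ranges can overlap. Genes lower in type IB thus most often had their lowest mean in type IA. Ttn, Calb1, Dpp10 and Lrrc52 were among the 8 higher genes with their lowest mean in type IA. For Lrrc52 type IC (2.33 CPM) and type IA (2.32 CPM) were nearly equal.

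Since the names and the counts share their UMIs, the comparison was repeated with names and counts from separate UMIs. The UMIs of each cell were split at random, each cell was named again from one portion, and the other portion was counted. The score used the 500 genes that best separated the authors' names in the other mice, and was trained on those names. The split removes counting error shared by names and counts, but not the authors' part in the naming. Agreement with the authors' names is therefore partly built in. The rebuilt name was the authors' for 1480 of 1625 type IB cells (91.6 ± 5.40% over mice, lowest 84.3%) and for 1920 of 2104 type IC cells (91.2 ± 1.56%). In the counted portion 1894 genes were called, 877 higher and 1017 lower in type IB, against 1693 with the authors' names on the same UMIs. Of the 1894 genes, 1583 were among the 2735, and 1583 of these had the same direction. Ttn was at 3.70 and Calb1 at 2.45 on the log2 scale, against 3.76 and 2.86 with the authors' names on the same UMIs. Other genes shrank more, with Chst9 at -3.18 against -4.19, Kcnc2 at -2.78 against -3.63 and Samd11 at -2.54 against -3.36. With rebuilt names Lypd1 (-4.05) and Ccdc109b (-4.02) were further from 0 than Chst9.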

How the data were processed

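Single neurons of 4 mice were compared by subtype, and each mouse is 1 replicate. Raw UMI counts were deposited by the authors as a gene by cell table for each mouse. The submitters' processing notes name Cell Ranger 2.0.1, Seurat 1.4 and build mm10. The sources used here give neither the filters on cells nor the rules behind the subtype names. No doublet caller was run. An alternative left out cells above percentile 95 of UMIs among all cells of their mouse (64 type IB and 106 type IC cells).

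UMIs were summed per mouse and subtype. The 8 sums entered a quasi-likelihood fit of edgeR 4.0.16 (R 4.3.3) with TMM scaling, the filterByExpr filter, the mouse as a block and 3 residual degrees of freedom, with Benjamini-Hochberg adjustment over all 12314 genes and a threshold of 0.05. Standard errors (SE) come from the estimate and its F statistic, and all p-values are two-sided. Numbers pair the samples because both sums of a number come from the same animal. Deviations from the subtype means correlated by 0.328 to 0.466 within a mouse, and by no more than -0.0007 with another mouse. The means were taken over the same 4 mice, so positive values within a mouse by themselves push those between mice down. On simulated sums of 12207 genes the fit recovered 84% of genes changed 1.5-fold and 90% of genes changed 2-fold, with 8 false calls. The simulated counts followed the model and spread of the fit and held no differences between mice. They cannot show how many calls in the real sums are false.

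Genes named are the 15 highest and 15 lowest called differences (at least 5 CPM in the higher subtype, same direction in 4 of 4 mice, Gm, Rik, AC, BC and AI models skipped), up to 4 called members of each of 21 lists, and the subtype markers, of which a few are left unreported. Members, lists, tests and markers were chosen with earlier results of these data known. Cells were thinned without replacement for shares and genes per cell. Shares and totals cover counting error of UMIs only. Positions come from GENCODE M21 (99 of 102 symbols matched) and promoters from RefSeq. Alternatives are DESeq2 1.42.0, other scalings and filters, and left-out mice or cells. Further ones are equal cell numbers, thinned cells, 1 model for 5 populations, and rebuilt names. The authors' names on the same UMIs, and sums without mitochondrially encoded genes, were added after seeing the data.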

Additional observations from a re-analysis of the deposited data

Results flagged for a closer look

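Of 165 sets of 4 mice examined (levels and differences of the named results), 4 had 1 mouse far from the other 3, where chance flags about 1 in 20. The log2 difference of mt-Nd1 was 0.53 in mouse 1 and 0.36 to 0.38 in the other mice. Chst9 stood at 1.16 CPM in type IB of mouse 3, against 0.755 to 0.783 CPM in type IB of the other mice. These Chst9 values rest on 19 UMIs in all type IB cells together. Grm8 stood at 47.0 CPM in type IC of mouse 1, against 39.9 to 40.8 CPM in type IC of the other mice. Sphkap stood at 185 CPM in type IC of mouse 4, against 134 to 137 CPM in type IC of the other mice. All 4 genes kept their call and direction without any 1 mouse.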

How the results depend on the processing

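The 30 genes ranked highest and lowest kept their call and direction in each alternative that tested them (14 to 17 of 17 per gene), and so did 78 of the 102 named genes (13 to 17 per gene). Of 1696 values of named genes, 1586 kept direction and side of the threshold, 107 no longer passed, 2 newly passed (Runx1 without mouse 4 and without the deepest cells) and 1 reversed (Pomc, -0.084 with rebuilt names). The count of called genes was 1019 with DESeq2 (498 higher, 521 lower), 1070 without the replicate block (549 and 521), 1540 with all 5 populations in 1 model (828 and 712) and 1317 with thinned cells (624 and 693). It was 1693 with the authors' names on the same UMIs as the rebuilt ones (827 and 866), and 877 genes were higher with rebuilt names. The cause of these moves was not tested, apart from the fewer UMIs in split cells. Thinning also left out shallow cells, so the part of fewer UMIs there was not tested alone. Leaving out 1 mouse gave 2136 to 2377 calls, 1049 to 1238 higher and 1087 to 1139 lower. The higher share of calls was 51.8% and ranged between 46.1% (library size only) and 53.8%. The difference in genes detected per cell reversed to 0.625 at 8547 UMIs, within its spread. Genes under 5 CPM were called least often (9.01%).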
